A study of Mus musculus with 42 samples.

Results

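The C-type lectin receptors described here are 9 genes, Clec4a1, Clec4a2, Clec4a3, Clec4d, Clec4e, Clec4n, Clec5a, Clec7a and Clec12a, taken by symbol from the 37310 gene identifiers of a raw count table. Their levels were followed in bone-marrow-derived macrophages (BMDM), which are macrophages grown in culture from mouse marrow with medium conditioned by L929 cells. The mice were young adult males. Those labelled KO carried Irf5 flox/flox alleles together with LysM-Cre, so that Irf5 (interferon regulatory factor 5) was to be deleted in cells that express Lyz2, and those labelled WT were wild-type. LysM-Cre sits in the Lyz2 gene itself. For each genotype there were 7 conditions, namely Control at 0, 2 and 24 h, palmitate (a saturated fatty acid) at 2 and 24 h, and bacterial lipopolysaccharide (LPS) at 2 and 24 h. This gave 14 groups of 3 libraries. The labels do not say whether the 3 libraries of a group came from separate mice, so the tests measure the spread between these libraries, which may be technical.

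C-type lectin receptors are membrane proteins whose extracellular lectin-like domain binds glycans, glycolipids or proteins of microbes and of damaged cells. The activating members signal through the kinase SYK and the CARD9, BCL10 and MALT1 complex, either by an adaptor (Fc receptor gamma chain, encoded by Fcer1g, or DAP12, encoded by Tyrobp) or by a motif in their own tail. The inhibitory members carry an ITIM, a tail motif that recruits the phosphatases SHP-1 (Ptpn6) and SHP-2 (Ptpn11). In macrophages they are best known for sensing fungi and mycobacteria, and the set of receptors on the cell changes with activation.

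All 9 genes lie on chromosome 6 (GRCm38, the assembly also called mm10). Clec4a1, Clec4a3, Clec4a2, Clec4n, Clec4d and Clec4e lie in this order, with 17.9, 137, 85.8, 15.1 and 6.52 kb between them. Clec4e is the only one of these 6 on the minus strand. Clec12a and Clec7a form a second pair 6053 kb further on, separated by 96.3 kb, and Clec5a lies 82336 kb before Clec4a1. Clec4a1 (ENSMUSG00000049037) spans 122921848 to 122934619, Clec4a3 (ENSMUSG00000043832) spans 122952515 to 122969875 and Clec4a2 (ENSMUSG00000030148) spans 123106428 to 123143999. Clec4n (ENSMUSG00000023349) spans 123229843 to 123247021, Clec4d (ENSMUSG00000030144) spans 123262111 to 123275265 and Clec4e (ENSMUSG00000030142) spans 123281789 to 123289870. Clec12a (ENSMUSG00000053063) spans 129342691 to 129365303, Clec7a (ENSMUSG00000079293) spans 129461591 to 129472779 and Clec5a (ENSMUSG00000029915) spans 40574894 to 40585821, and Clec7a and Clec5a are also on the minus strand. RefSeq promoter windows of GRCm38.p6, from 250 bases before to 50 after the transcription start site, were matched for 8 of the 9 genes. The 5 shown belong to receptors on which the LPS results turn: Clec4e, Clec5a and Clec4d rose at 2 h, Clec4a1 rose at 24 h and Clec7a fell at 24 h. Each is written 5′ to 3′ on the strand of its gene, and capitals mark matches, on either strand, to any of 6 motifs.
Clec4e, chr6:123289822-123290121, minus strand: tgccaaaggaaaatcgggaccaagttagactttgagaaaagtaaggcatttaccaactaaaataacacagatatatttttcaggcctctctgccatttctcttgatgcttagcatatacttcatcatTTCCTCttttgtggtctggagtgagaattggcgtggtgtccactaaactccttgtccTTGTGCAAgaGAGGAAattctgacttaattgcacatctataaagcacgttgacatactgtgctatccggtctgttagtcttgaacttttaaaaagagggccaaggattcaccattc
Clec5a, chr6:40585756-40586055, minus strand: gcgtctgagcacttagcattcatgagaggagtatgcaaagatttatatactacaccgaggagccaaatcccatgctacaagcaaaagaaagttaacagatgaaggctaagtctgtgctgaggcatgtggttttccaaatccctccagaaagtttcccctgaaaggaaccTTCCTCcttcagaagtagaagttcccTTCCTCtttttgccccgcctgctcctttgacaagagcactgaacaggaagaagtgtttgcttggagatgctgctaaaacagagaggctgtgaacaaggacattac
Clec4d, chr6:123261857-123262156, plus strand: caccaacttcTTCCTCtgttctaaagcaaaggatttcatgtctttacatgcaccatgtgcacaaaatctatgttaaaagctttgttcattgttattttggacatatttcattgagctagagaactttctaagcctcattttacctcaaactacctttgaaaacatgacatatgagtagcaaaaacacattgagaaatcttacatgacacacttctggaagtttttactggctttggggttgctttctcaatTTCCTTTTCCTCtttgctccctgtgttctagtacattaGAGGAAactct
Clec4a1, chr6:122921598-122921897, plus strand: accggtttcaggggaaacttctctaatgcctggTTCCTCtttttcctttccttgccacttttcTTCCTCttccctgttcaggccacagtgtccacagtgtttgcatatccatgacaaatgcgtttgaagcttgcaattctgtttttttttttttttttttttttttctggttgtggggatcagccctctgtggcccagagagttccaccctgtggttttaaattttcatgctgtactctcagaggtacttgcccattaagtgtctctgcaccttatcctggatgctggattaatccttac
Clec7a, chr6:129472730-129473029, minus strand: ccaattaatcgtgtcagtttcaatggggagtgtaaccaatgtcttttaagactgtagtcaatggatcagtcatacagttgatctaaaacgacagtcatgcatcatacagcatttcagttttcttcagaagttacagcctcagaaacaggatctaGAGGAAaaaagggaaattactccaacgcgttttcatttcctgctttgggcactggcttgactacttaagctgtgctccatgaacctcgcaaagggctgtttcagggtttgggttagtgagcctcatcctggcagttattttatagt

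The motifs searched were the NF-kappaB consensus, AP-1 (TGANTCA), C/EBP (TTGCNNAA), PU.1 (GAGGAA), IRF (GAAANNGAA) and STAT (TTCNNNGAA). PU.1 is the ETS factor that specifies myeloid cells. Its letters were in at least 1 window of 7 of the 8 genes, against 28.3% of all 32851 windows of the same length. The 8 genes had 10 windows, and a gene was counted if any of its windows matched. Its share is therefore of genes and the background share of windows. The Clec4e window held a C/EBP match (TTGTGCAA) starting at -66 and PU.1 matches starting at -123 and -56, with the start site counted as 0. C/EBP letters were otherwise found among the receptors only in the Clec12a window, and in 10.8% of all windows. The Clec5a window held PU.1 matches at -81 and -55. An IRF match (TTCCTTTTC, starting at 1) was found in the Clec4d window alone, where it overlapped a PU.1 match, and in 8.56% of all windows. AP-1 letters were in the Clec4a2 and Clec12a windows (7.81% of all windows) and STAT letters in the Clec4a2 window (8.3%). NF-kappaB letters were in none of the 8 genes' windows and in 8.46% of all windows. These matches describe letters and not bound sites, and a missing match covers only these letters in this window.

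Library totals ranged from 2848793 to 7743442 counts. Levels are given as CPM, the count scaled to a common library size with TMM factors, and 3 counts corresponded to 0.387 to 1.05 CPM, depending on the library. The receptors were read by 26 to 5214 counts in a single library, with Clec4a3 the least covered (26 to 188) and Clec4d never under 1467. All 9 passed the filter on low counts and were tested with edgeR's quasi-likelihood test, with p-values adjusted by Benjamini-Hochberg over 11624 genes. A gene is called at an adjusted p under 0.05. Of the treatment markers, Tnf was 4.77 ± 0.09 (log2 fold change ± SE) higher after LPS at 2 h in WT, and Plin2, a lipid droplet coat protein, was 1.99 ± 0.06 higher after palmitate at 24 h in WT. Of 8 macrophage markers all were detected, with a summed level of 9800 to 23595 CPM. Lyz2 is among the 8 and had the highest median level, at 10186 CPM in WT and 5576 CPM in KO. The sum was 16038 to 16673 CPM in WT Control 24 h and 10705 to 11315 CPM in KO Control 24 h. Because it holds Lyz2, it does not compare macrophage content between genotypes. Irf5 was not lower in the libraries labelled KO. Its level was 267 to 430 CPM (median 294) in these and 210 to 389 (median 250) in those labelled WT, and in 6 of 7 conditions each KO library lay above each WT library. Counts over the whole gene do not separate the floxed exons from the rest. Lyz2, which holds the Cre insertion, was lower in each library labelled KO than in each labelled WT in 7 of 7 conditions. The genotype labels below are therefore those of the submitters. A summed level of 5 fibroblast markers above 30 CPM was found in 15 of the 42 libraries, among them every Control library labelled KO, 1 WT library each of Control 2 h, palmitate 2 h and Control 24 h, and no WT library under LPS. Markers of dendritic, B, T and natural killer, erythroid and mast cells summed to at most 16 CPM per list in any library. In these bulk samples, fewer cells that express a receptor and less of its RNA per cell cannot be told apart.

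**Figure D1:**
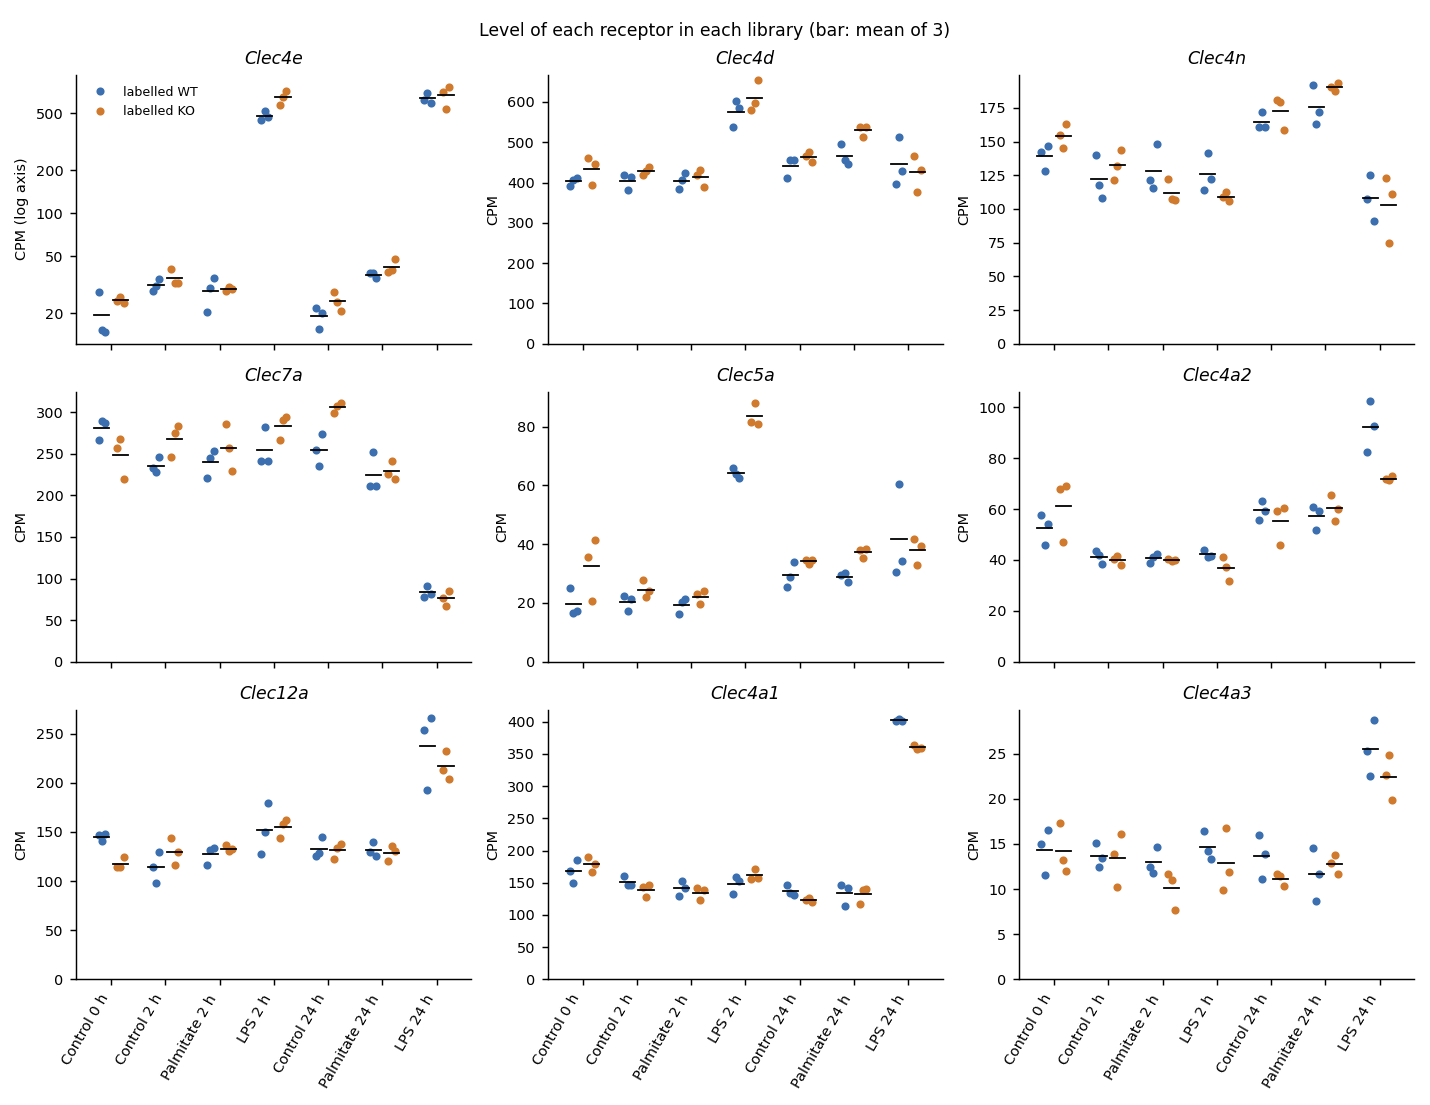
Level of each receptor (CPM, vertical axis, logarithmic for Clec4e and linear from 0 elsewhere) in each of the 42 libraries, by condition on the horizontal axis, with WT libraries in blue, KO libraries in orange and a bar at the mean of 3. Clec4e stands at 447 CPM or more in the 12 LPS libraries and at 48.1 or less elsewhere, and Clec7a drops below 100 CPM only under LPS at 24 h.

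LPS moved the receptors at different times, with Clec4e, Clec5a and Clec4d higher at 2 h and Clec4e, Clec4a1, Clec4a2, Clec4a3 and Clec12a higher and Clec4n and Clec7a lower at 24 h in both genotypes. At 2 h, 4 of 9 receptors were called in WT (Clec4e, Clec5a, Clec4d and Clec12a) and 3 of 9 in KO (the first 3 of these), all of them higher. Of all genes tested, 23.1% were called in WT (14% higher and 9.1% lower) and 23.9% in KO (14.7% higher and 9.16% lower). At 24 h, 8 of 9 were called in WT, of which 6 were higher and 2 lower, and 7 of 9 in KO, with 5 higher and 2 lower. The background at 24 h was 39.5% of genes called in WT (19.6% higher, 19.9% lower) and 40.9% in KO (19.9% higher, 21% lower). The median log2 fold change of the 9 was 0.63 in WT and 0.38 in KO at 24 h, beside -0.01 over all genes in each. Without the libraries above 30 CPM of fibroblast markers, the WT counts were again 4 and 8. This could not be done in KO, where every Control library was above it. The summed level of the 10 granulocyte precursor markers also moved with LPS at 24 h, from 150 to 156 CPM in Control to 425 to 615 CPM in WT and from 235 to 321 CPM to 400 to 489 CPM in KO, with Lcn2 alone reaching 421 CPM. Mpo, Elane and Prtn3, the primary granule genes among them, were each at 8.35 CPM or less in every library, and Camp at 4.05 CPM or less. The other members reached more, with S100a8 at 21.3, Ngp at 54.7, S100a9 at 60.2, Ltf at 72.2 and Mmp8 at 164 CPM. Medians in WT and KO were 14.9 and 34.3 CPM for Ltf, 12.3 and 30.6 for Ngp, and 13.9 and 25.9 for S100a9. Lcn2 also reached 336 CPM in KO, so the sum under LPS at 24 h does not show whether the other markers rose. In WT the lowest levels of Ltf, Ngp and S100a9 were 1.16, 2.15 and 2.48 CPM, below these medians. Whether the share of such cells changed under LPS, and their part in the LPS results, was not tested.

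Clec4e encodes Mincle, which binds mycobacterial cord factor and SAP130 released from dying cells and signals through the Fc receptor gamma chain. In WT its level was 28.8, 31.3 and 34.7 CPM in Control at 2 h and 447, 467 and 520 CPM after 2 h of LPS. At 24 h it was 15.6, 20.1 and 21.9 CPM in Control and 588, 617 and 693 CPM under LPS. Every LPS library lay above every Control library at both times. Clec4e rose 15.1-fold at 2 h (log2 fold change 3.91 ± 0.14, adjusted p = 5.49e-29) and 33.4-fold at 24 h (5.06 ± 0.15, adjusted p = 8.92e-32). In KO the level under LPS was 572, 650 and 719 CPM at 2 h and 533, 702 and 763 CPM at 24 h, against 32.4 to 40.5 and 20.8 to 28.3 CPM in the matched Control. The rise in KO was 18.4-fold at 2 h and 27.9-fold at 24 h. The test of the difference between genotypes in this response gave 0.29 ± 0.20 at 2 h (adjusted p = 0.79) and -0.26 ± 0.22 at 24 h (adjusted p = 0.974).

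Clec4d encodes MCL, the partner with which Mincle is expressed at the cell surface, and per kb of exon it had the highest level of the 9 in 14 of 14 groups. Its level in WT was 380, 414 and 420 CPM in Control at 2 h and 537, 584 and 603 CPM under LPS. All LPS libraries lay above all Control libraries at this time. The rise was 1.42-fold in both genotypes (WT 0.51 ± 0.07, adjusted p = 1.52e-07, and KO 0.51 ± 0.07, adjusted p = 1.36e-07). At 24 h the WT levels were 412, 455 and 457 CPM in Control and 398, 428 and 513 CPM under LPS, which overlap. Clec4d was not called at 24 h in either genotype (0.01 ± 0.07 in WT and -0.12 ± 0.07 in KO). Clec4e and Clec4d are neighbours on opposite strands, and the ratio of Clec4e to Clec4d, per kb of exon, was 0.0252 ± 0.0027 (SD, n = 3) in WT Control at 2 h, 0.268 ± 0.010 after 2 h of LPS and 0.459 ± 0.035 after 24 h of LPS.

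Clec4n encodes Dectin-2, a receptor for fungal mannans that also couples to the Fc receptor gamma chain. At 24 h it stood at 161, 161 and 172 CPM in WT Control and at 90.9, 107 and 125 CPM under LPS. The groups did not overlap, and the level fell by 0.61 ± 0.11 on the log2 scale (1.53-fold lower, adjusted p = 9.44e-06). In KO it was 158, 180 and 180 CPM in Control and 75.1, 111 and 123 CPM under LPS, a fall of 1.66-fold (-0.73 ± 0.11, adjusted p = 2.44e-07). At 2 h it was not called in WT (0.06 ± 0.11) or KO (-0.28 ± 0.12, adjusted p = 0.078). Of the 3 receptors that use this adaptor, Clec4e was higher, Clec4d was not called and Clec4n was lower after 24 h of LPS in both genotypes.

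Clec7a encodes Dectin-1, the beta-glucan receptor, which signals to SYK through a motif in its own tail. After 2 h of LPS it was 241, 242 and 283 CPM in WT, beside 228, 234 and 246 CPM in Control, and it was not called (0.12 ± 0.08, adjusted p = 0.368). At 24 h the levels were 236, 255 and 274 CPM in WT Control and 77.4, 81.6 and 91.0 CPM under LPS. In KO they were 299, 308 and 312 CPM in Control and 66.5, 76.2 and 85.2 CPM under LPS. The 6 LPS libraries were thus lower than every Control library at this time. The fall was 3.06-fold in WT (-1.61 ± 0.09, adjusted p = 3.95e-21) and 4.02-fold in KO (-2.01 ± 0.09, adjusted p = 6.36e-25). The difference between the genotypes in this fall was -0.39 ± 0.13, with an unadjusted p of 0.003 and an adjusted p of 0.92. The highest of the 14 group means was that of KO Control 24 h (306 ± 6.4 CPM, SD, n = 3), while WT Control 24 h stood at 255 ± 19 CPM.

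Clec5a encodes MDL-1, a DAP12-coupled receptor of myeloid cells. It rose at 2 h and came back towards Control by 24 h. In WT it was 17.4, 21.2 and 22.5 CPM in Control at 2 h and 62.6, 63.9 and 65.8 CPM under LPS, with no overlap. The rise was 3.15-fold (1.66 ± 0.18, adjusted p = 1.1e-10). In KO, LPS at 2 h gave 81.1, 81.6 and 88.1 CPM against 21.8, 23.9 and 27.9 CPM, a rise of 3.41-fold (1.77 ± 0.17, adjusted p = 4.8e-12). At 24 h the WT libraries under LPS read 30.6, 34.1 and 60.4 CPM, of which the lowest lay within the Control range of 25.3 to 33.9 CPM. The call at 24 h in WT (0.48 ± 0.17, adjusted p = 0.0233) rested on the highest library, and without it (library 2 of the group) the value was 0.12 with an adjusted p of 0.631. It was also lost without library 1 or library 2 of WT Control 24 h (0.41, adjusted p = 0.098, and 0.47, adjusted p = 0.0674). In KO at 24 h Clec5a was not called (0.16 ± 0.17, adjusted p = 0.484).

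Clec4a2 encodes DCIR, an inhibitory receptor with an ITIM. At 24 h it was 55.9, 59.3 and 63.3 CPM in WT Control and 82.3, 92.8 and 102 CPM under LPS, a rise of 1.55-fold (0.63 ± 0.10, adjusted p = 1.8e-06). In KO the rise was 1.3-fold (0.38 ± 0.11, adjusted p = 0.00296), from 45.7, 59.3 and 60.6 CPM to 71.3, 71.9 and 72.9 CPM. The groups did not overlap in either genotype. Without library 2 of KO Control 24 h the call in KO was lost (0.27, adjusted p = 0.0638). Of the 50-base stretches of Clec4a2 transcripts, 6.69% also occur in another gene, most often Clec4a4, so a small part of its reads is uncertain. At 2 h Clec4a2 was not called in either genotype.

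Clec12a encodes MICL, an ITIM-bearing receptor for uric acid crystals and dead cells. In WT it was 98.3, 114 and 130 CPM in Control at 2 h and 127, 150 and 179 CPM under LPS, which overlap. It was called in WT (0.43 ± 0.10, adjusted p = 0.000832) and missed the threshold in KO (0.26 ± 0.10, adjusted p = 0.0533). Without library 3 of WT LPS 2 h the WT value was 0.29 with an adjusted p of 0.054. At 24 h the difference was clear of the spread, with 125, 128 and 145 CPM in WT Control and 192, 253 and 265 CPM under LPS. The rise was 1.78-fold in WT (0.83 ± 0.10, adjusted p = 3.28e-10) and 1.64-fold in KO (0.72 ± 0.10, adjusted p = 1.6e-08). Both inhibitory receptors with an ITIM, Clec4a2 and Clec12a, were therefore higher after 24 h of LPS.

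Clec4a1 and Clec4a3 are the remaining DCIR-related genes of the cluster. Clec4a1 was 131, 134 and 147 CPM in WT Control at 24 h and 401, 402 and 404 CPM under LPS. In KO it was 120, 123 and 126 CPM and 358, 359 and 364 CPM. Its LPS libraries differed from each other by a few CPM only, and the rise was 2.94-fold in WT (1.55 ± 0.08, adjusted p = 3.35e-22) and 2.93-fold in KO (1.55 ± 0.08, adjusted p = 4.56e-22). Clec4a3 was low, with 11.1, 13.8 and 16 CPM in WT Control and 22.5, 25.3 and 28.8 CPM under LPS. It rose 1.9-fold in WT (0.92 ± 0.18, adjusted p = 4.18e-05) and 2.02-fold in KO (1.01 ± 0.19, adjusted p = 1.41e-05). Neither was called at 2 h, where the values were -0.02 ± 0.08 in WT and 0.21 ± 0.08 in KO for Clec4a1. All 3 DCIR-related genes were called higher at 24 h in both genotypes, and none of the 3 was called against Control at 2 h.

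**Figure D2:**
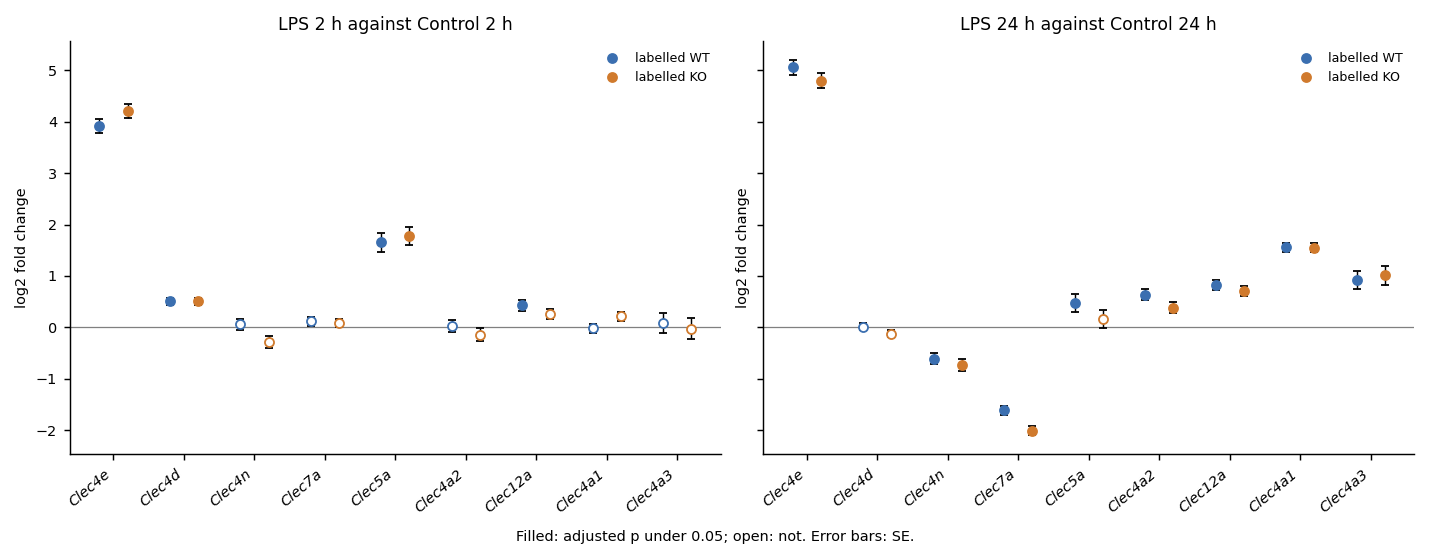
Log2 fold change (vertical axis) of each receptor (horizontal axis) under LPS against Control of the same time, at 2 h on the left and 24 h on the right, for WT in blue and KO in orange. Bars are SE and filled points are called. Clec4e is highest in both panels, at 3.91 and 5.06 in WT, and Clec7a is lowest at 24 h, at -1.61 in WT and -2.01 in KO.

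The LPS response at 24 h was then compared with that at 2 h in a single contrast. All 9 receptors were called in WT and in KO, where 32.6% and 33.4% of all genes were called. The signed response was higher at 24 h for Clec4a1, Clec4a2, Clec4a3, Clec4e and Clec12a, and lower for Clec4d, Clec4n, Clec5a and Clec7a, in both genotypes. For Clec4n and Clec7a the lower value was a fall at 24 h that was not called at 2 h. For Clec5a and Clec4d it was a rise at 2 h that was smaller or not called at 24 h. In WT the difference ran from -1.73 ± 0.12 for Clec7a to 1.57 ± 0.12 for Clec4a1. For Clec4e it was 1.15 ± 0.21 in WT and 0.60 ± 0.20 in KO. Its mean in Control went from 31.6 CPM at 2 h to 19.2 CPM at 24 h in WT and from 35.2 to 24.4 CPM in KO. Under LPS the mean went from 478 to 632 CPM in WT. In KO it was 647 and 666 CPM, with overlapping libraries. The 24 h and 2 h responses use different Control groups, so this contrast carries any change of the Control with time.

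Set against palmitate of the same time rather than Control, LPS gave 4 called receptors in WT at 2 h (22.5% of all genes), 4 in KO (25.9%), 8 in WT at 24 h (39.5%) and 8 in KO (40.7%). These comparisons use the same LPS libraries as those above. The receptor not called at 24 h was Clec4d in WT (-0.06 ± 0.07) and Clec5a in KO (0.04 ± 0.17). Clec4d was called in KO, where it was 1.25-fold lower under LPS than under palmitate (-0.32 ± 0.07, adjusted p = 0.000292), at 377, 432 and 467 CPM against 513, 539 and 539 CPM. Clec4e was 16.9-fold higher under LPS than under palmitate in WT at 24 h and 15.6-fold higher in KO. Clec12a in WT (0.27) and Clec4a1 in KO (0.26) at 2 h, Clec4a2 in KO (0.25) and Clec5a in WT (0.53) at 24 h lost their calls without single libraries. Among libraries low in fibroblast markers, where fewer libraries were fitted, the first 3 of these had values of 0.21, 0.24 and 0.26 with adjusted p-values of 0.214, 0.142 and 0.0601. The Clec4a2 value in KO was also not called by DESeq2 (0.25, adjusted p = 0.059), which called 7 of 9 receptors in that comparison, or with all genes kept (0.24, adjusted p = 0.0933).

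Palmitate moved few receptors. At 2 h the edgeR test called 0 of 9 in WT (0.275% of all genes called) and 0 of 9 in KO (0.112%), as did DESeq2, and at an unadjusted p under 0.05 there were 0 in WT and 2 in KO. At 24 h Clec4e was called in WT, as the only 1 of 9 (0.852% of all genes), and Clec4e and Clec7a in KO, 2 of 9 (0.877%). In WT, Clec4e was 15.6, 20.1 and 21.9 CPM in Control and 35.4, 38.1 and 38.6 CPM under palmitate. All palmitate libraries were above all Control libraries, and the rise was 1.97-fold (0.98 ± 0.18, adjusted p = 0.000831). In KO the levels were 20.8, 24.1 and 28.3 CPM and 39.1, 40.2 and 48.1 CPM, a rise of 1.78-fold (0.84 ± 0.17, adjusted p = 0.00272). Without library 3 of KO Control 24 h this was 0.72 (adjusted p = 0.0721), and without library 3 of KO palmitate 24 h it was 0.73 (adjusted p = 0.0665).

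Clec7a was the other palmitate call. In KO it was 299, 308 and 312 CPM in Control at 24 h and 220, 226 and 241 CPM under palmitate, which do not overlap, and it fell by 0.42 ± 0.08 on the log2 scale (1.34-fold lower, adjusted p = 0.00214). In WT it was 236, 255 and 274 CPM and 211, 211 and 253 CPM, with a value of -0.18 ± 0.08 (adjusted p = 0.49). The difference of this response between genotypes was -0.24 ± 0.12 (adjusted p = 1). Its mean level was 225 ± 24 CPM in WT and 229 ± 11 CPM in KO under palmitate, and 255 ± 19 CPM in WT and 306 ± 6.4 CPM in KO in Control (SD, n = 3), and neither difference between genotypes was called. Summed fibroblast markers were 39.5 to 133 CPM in KO Control 24 h and 0 to 7.32 CPM in KO palmitate 24 h, and their part in the Clec7a call was not tested. The LPS and palmitate comparisons share their Control libraries.

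**Figure D3:**
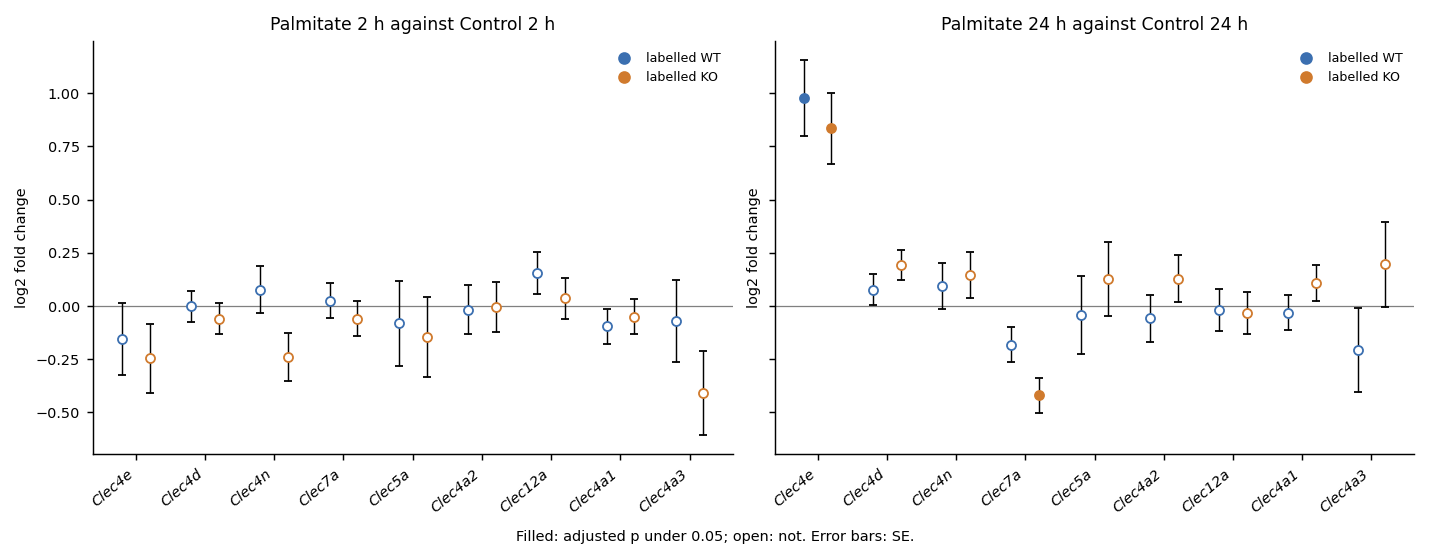
Log2 fold change (vertical axis) of each receptor (horizontal axis) under palmitate against Control of the same time, at 2 h on the left and 24 h on the right, for WT in blue and KO in orange. Bars are SE and filled points are called. At 2 h no point is filled, and at 24 h the filled points are Clec4e in both genotypes (0.98 and 0.84) and Clec7a in KO (-0.42).

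Libraries labelled KO and WT were compared within each condition. In Control at 0 h, 2 of 9 receptors were called, against 12.5% of all genes. Clec5a was 16.4, 17.2 and 25.2 CPM in WT and 20.5, 35.7 and 41.6 CPM in KO, so that the groups overlap. It was 1.68-fold higher in KO (0.74 ± 0.19, adjusted p = 0.00529), and without library 3 of KO Control 0 h the value was 0.53 with an adjusted p of 0.105. Clec12a was 141, 147 and 147 CPM in WT and 114, 114 and 124 CPM in KO, with no overlap. It was 1.23-fold lower in KO (-0.30 ± 0.10, adjusted p = 0.0341). This call was lost on leaving out any 1 of the 6 libraries, with adjusted p-values of 0.0534 to 0.13. At 0 h the summed level of 10 granulocyte precursor markers was 104 to 119 CPM in WT and 138 to 153 CPM in KO, and that of the 5 fibroblast markers was 0.529 to 0.905 CPM in WT and 42.1 to 69.3 CPM in KO. The part of these cells in the Clec5a and Clec12a results was not tested.

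In the other 6 conditions the edgeR test called 0 of 9 receptors, and so did DESeq2. The share of all genes called was 0.49% in Control 2 h, 0.146% in palmitate 2 h, 0.465% in LPS 2 h, 0.12% in Control 24 h, 0.0688% in palmitate 24 h and 0.146% in LPS 24 h. At an unadjusted p under 0.05 there were 1, 0, 2, 1, 2 and 2 receptors in these conditions. The nearest to a call was Clec4e under LPS at 2 h, at 447, 467 and 520 CPM in WT and 572, 650 and 719 CPM in KO, which do not overlap (0.44 ± 0.11, adjusted p = 0.0521). It was called when genes with at least 1 count were all kept (adjusted p = 5.79e-07), when the fit held only the libraries compared (adjusted p = 0.0498), and without library 1 of KO LPS 2 h (0.51, adjusted p = 0.024). It was not called by DESeq2 (adjusted p = 0.23) or among libraries low in fibroblast markers (0.44, adjusted p = 0.129). In LPS 2 h the granulocyte precursor markers summed to 96.6 to 128 CPM in WT and 189 to 303 CPM in KO. Their part in the Clec4e value was not tested. Clec4a2 under LPS at 24 h was 82.3, 92.8 and 102 CPM in WT and 71.3, 71.9 and 72.9 CPM in KO (-0.36 ± 0.10, adjusted p = 0.173). It was called with all genes kept (adjusted p = 0.0451). Clec7a in Control 24 h was called when the fit held only the libraries compared (0.26, adjusted p = 0.00633). Libraries of the genotypes also did not overlap for other receptors, among them Clec4a1 under LPS at 24 h. The share of such genes over all genes was not computed, so non-overlap is not read as a difference.

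Averaged over the 7 conditions, 2 of 9 receptors were called, against 11.4% of all genes, and both were higher in the libraries labelled KO. Clec4e was higher by 0.23 ± 0.06 (adjusted p = 0.00716), with a positive value in 7 of 7 conditions that ranged from 0.06 to 0.44. Clec5a was higher by 0.29 ± 0.07 (adjusted p = 0.00289), with a positive value in 6 of 7 conditions. The exception was LPS at 24 h, at -0.12. The other 7 receptors lay between -0.13 ± 0.07 (Clec4a3) and 0.07 ± 0.03 (Clec4d) on this average. The mean also takes in Control 0 h and its marker differences given above. Granulocyte precursor markers were higher in every KO than every WT library in the other conditions too, except LPS 24 h. In Control 2 h they summed to 69.3 to 80.7 CPM in WT and 124 to 197 CPM in KO. Under LPS at 24 h the ranges overlapped, at 425 to 615 and 400 to 489 CPM. The part of these cells in the averaged values was not tested. In the average over the 7 conditions Irf5 was 0.27 ± 0.02 higher and Lyz2 fell by 0.84 ± 0.04 in the libraries labelled KO.

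**Figure D4:**
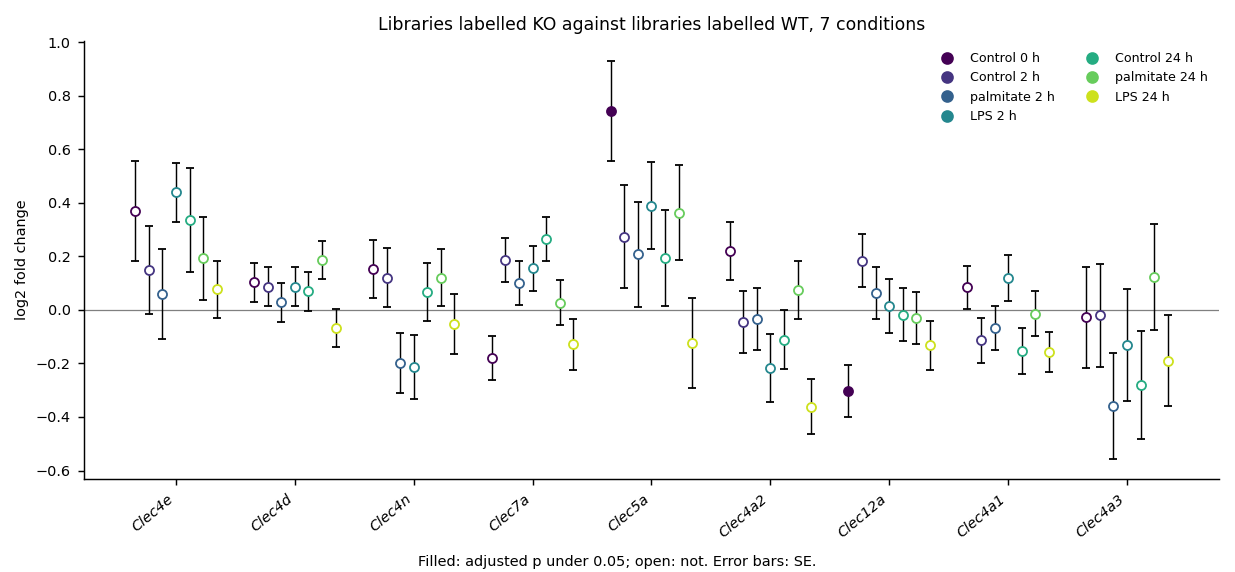
Log2 fold change (vertical axis) of libraries labelled KO against those labelled WT for each receptor (horizontal axis), with 1 point for each of the 7 conditions, coloured from Control 0 h (dark) to LPS 24 h (light). Bars are SE and filled points are called. The filled points are Clec5a (0.74) and Clec12a (-0.30) in Control at 0 h, and Clec4e lies above 0 in all 7 conditions.

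No treatment response of a receptor was shown to differ between genotypes. The edgeR tests of the difference called 0 of 9 receptors for LPS at 2 h (0.0% of all genes, 0 genes), LPS at 24 h (0.0086%, 1 gene), palmitate at 2 h (0.0%) and palmitate at 24 h (0.0%). DESeq2 also called 0 of 9 in each. At an unadjusted p under 0.05 there was 1 receptor in each of the 4 tests, namely Clec4n at 2 h under LPS (-0.33 ± 0.16) and palmitate (-0.32 ± 0.16) and Clec7a at 24 h under LPS (-0.39 ± 0.13) and palmitate (-0.24 ± 0.12). The LPS and palmitate tests share Control libraries. Over all genes, an unadjusted p under 0.05 was found for 810, 628, 486 and 411 genes, and DESeq2 called 1, 2, 0 and 0.

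Time in culture without treatment also moved some receptors. From Control 0 h to 2 h, 3 of 9 were called over both genotypes, against 16.7% of all genes. Clec4e rose 1.54-fold (0.62 ± 0.12, adjusted p = 0.00012), from 14.9, 15.3 and 28.4 CPM to 28.8, 31.3 and 34.7 CPM in WT and from 23.7, 24.3 and 25.9 CPM to 32.4, 32.8 and 40.5 CPM in KO. The groups did not overlap in either genotype. Clec4a2 fell 1.4-fold (-0.48 ± 0.08, adjusted p = 5.01e-06) and Clec4a1 fell 1.2-fold (-0.26 ± 0.06, adjusted p = 0.000709). From 0 h to 24 h only Clec4a1 was called, 1 of 9, against 16.5% of all genes. It fell 1.34-fold (-0.42 ± 0.06, adjusted p = 3.01e-07), from 150, 169 and 186 CPM to 131, 134 and 147 CPM in WT.

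These time courses differed between genotypes for 2 receptors. From 0 to 2 h Clec12a was called, 1 of 9 (4.77% of all genes), at 0.49 ± 0.14 (adjusted p = 0.0305). In WT its mean went from 145 ± 3.5 to 114 ± 16 CPM, and in KO from 118 ± 5.8 to 130 ± 14 CPM (SD, n = 3). From 0 to 24 h Clec7a was called, 1 of 9 (1.83% of all genes), at 0.44 ± 0.12 (adjusted p = 0.0304). Its mean went from 281 ± 12 to 255 ± 19 CPM in WT and from 248 ± 25 to 306 ± 6.4 CPM in KO. Both values use Control 0 h and the later Control group, and the genotypes differed in marker levels at each time. Granulocyte precursor markers summed to 69.3 to 80.7 CPM in WT and 124 to 197 CPM in KO at 2 h. At 24 h these sums were 150 to 156 and 235 to 321 CPM. Fibroblast markers summed to 1.16 to 58.7 CPM in WT and 72.3 to 118 CPM in KO at 2 h. At 24 h they were 2.74 to 45.2 and 39.5 to 133 CPM, which overlap. The part of these cells was not tested. Each call was lost in part of the fits without a single library, in 8 for Clec12a and 9 for Clec7a. The adjusted p reached 0.14 for Clec12a (without library 2 of WT Control 2 h) and 0.198 for Clec7a (without library 3 of KO Control 0 h).

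To compare the receptors with each other, levels were divided by the length of their merged exons. In WT Control at 24 h Clec4d was highest, at 276 ± 16 CPM per kb (SD, n = 3). Clec4n (116 ± 4.4), Clec7a (96.6 ± 7.2) and Clec4a1 (88.2 ± 5.4 CPM per kb) followed. Clec12a, Clec4a2, Clec4a3, Clec5a and Clec4e came last, with Clec4e at 3.87 ± 0.65 CPM per kb. After 24 h of LPS the order was Clec4d (279 ± 37), Clec4a1 (258 ± 0.96) and Clec4e (127 ± 11 CPM per kb), and Clec7a stood seventh at 31.6 ± 2.7 CPM per kb, next to Clec4a2 at 31.6 ± 3.4 CPM per kb. Clec4d and Clec4a1 did not differ beyond their spread in that group. Clec4e took 0.603% ± 0.11 of the summed per-kb level of the 9 in WT Control at 24 h, 11.9% ± 0.27 after 2 h of LPS and 14.5% ± 0.50 after 24 h of LPS. Clec4a1 went from 13.7% ± 1.2 to 29.5% ± 1.8 between WT Control and LPS at 24 h, while Clec4d went from 42.9% ± 1.6 to 31.7% ± 2.1 and Clec7a from 15.0% ± 1.0 to 3.60% ± 0.081. The summed level itself was 643 ± 15 CPM per kb in Control and 877 ± 59 CPM per kb under LPS.

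**Figure D5:**
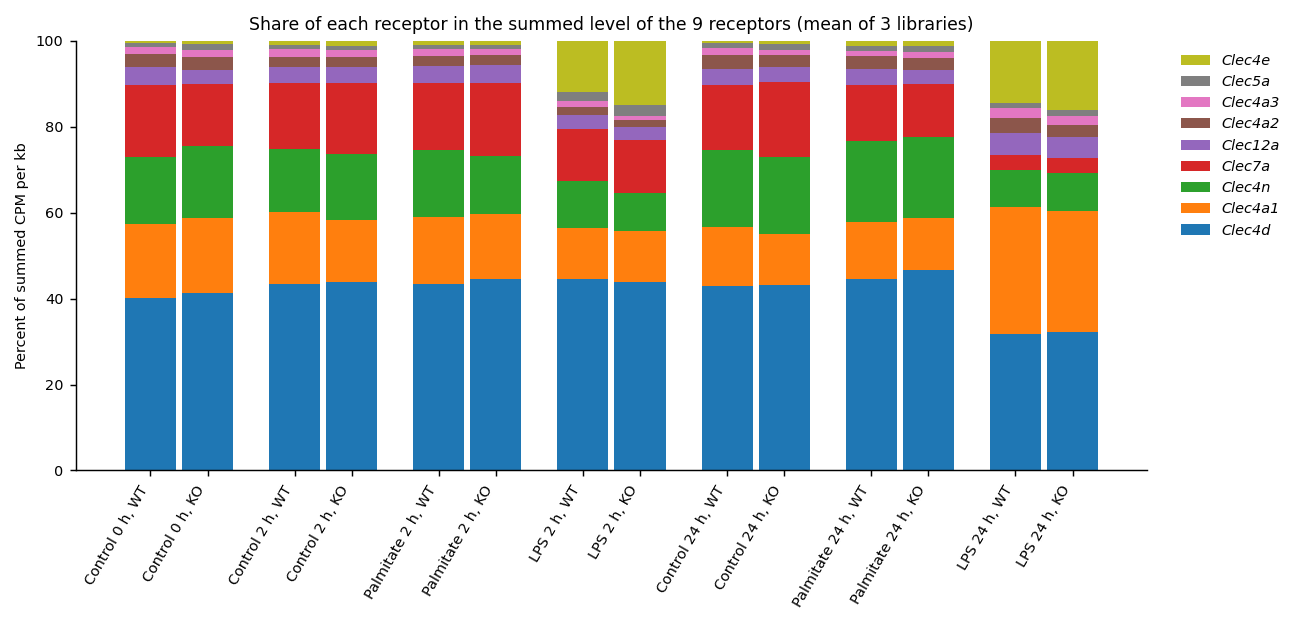
Share (percent of summed CPM per kb, vertical axis, mean of 3 libraries) of each receptor in the summed level of the 9, for the 14 groups on the horizontal axis. In WT, Clec4e takes 0.603% in Control 24 h and 14.5% in LPS 24 h, Clec4a1 goes from 13.7% to 29.5%, and Clec7a from 15.0% to 3.60%.

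As a ratio of the highest to the lowest of the 14 group means, the range was widest for Clec4e (34.7), from 19.2 CPM (WT Control 24 h) to 666 CPM (KO LPS 24 h), and narrowest for Clec4d (1.51), from 403 CPM (WT Control 0 h) to 610 CPM (KO LPS 2 h). In the order of the 14 means most neighbours overlapped in their libraries, with 10 of 13 pairs for Clec4e and 13 of 13 for Clec4n. For Clec4e the breaks fell between WT LPS 24 h and WT LPS 2 h, between WT LPS 2 h and KO palmitate 24 h, and between KO palmitate 24 h and WT palmitate 24 h. For Clec7a they fell below KO Control 24 h and between WT palmitate 24 h and WT LPS 24 h. Clec5a broke below KO LPS 2 h, below WT LPS 2 h and below KO palmitate 24 h.

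Across the 14 group means of log2 CPM, the receptors most alike were Clec4a1 and Clec4a3 (Pearson's r = 0.95), followed by Clec4d and Clec5a (0.90), and the most opposed were Clec4a1 and Clec7a (-0.93). The 14 points share Control libraries and LPS, so these values describe the pattern and carry no test. Among all other genes, Clec4e was most like Mmp14 (0.99), Snx10 (0.99) and Sod2 (0.99), which encode a membrane metalloproteinase, a sorting nexin and mitochondrial superoxide dismutase. Clec4a1 was most like Fcer1g (0.99), the adaptor subunit named above, then Rac2 (0.99) and Bag1 (0.98). Clec7a was most like Anxa3 (0.99), Itga6 (0.98) and Rftn1 (0.98). Clec12a was most like Agtrap (0.97), Batf (0.97) and Rtn2 (0.97), of which Rtn2 was near the counting floor, at a mean log2 CPM of 0.26. Clec4d and Clec5a shared Ero1l, the endoplasmic reticulum oxidoreductase, among their nearest genes (0.95 and 0.96). Clec4a2 came nearest to Ciao2a (0.95), Clec4a3 to Csnk2b (0.95) and Clec4n to Dcun1d4 (0.93).

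Downstream of the receptors, 20 signalling partners were tested. After 2 h of LPS, 11 of 20 were called in WT (10 higher, 1 lower) and 9 of 20 in KO (all higher), beside 23.1% and 23.9% of all genes. Malt1, the paracaspase of the CARD9 complex, rose from 34.9 ± 0.92 to 189 ± 13 CPM in WT (SD, n = 3), a log2 fold change of 2.43 ± 0.12. Src, a kinase that phosphorylates such tail motifs, rose by 2.18 ± 0.14, Bcl10 by 0.82 ± 0.09 and Syk by 0.69 ± 0.05. At 24 h, 13 of 20 were called in WT (10 higher, 3 lower) and 15 of 20 in KO (12 higher, 3 lower), beside 39.5% and 40.9% of all genes. The kinase genes Src (1.36 ± 0.16) and Fgr (1.27 ± 0.12) rose in WT. Of the adaptors, Fcer1g rose from 395 ± 25 to 935 ± 27 CPM (1.24 ± 0.06) and Tyrobp fell from 360 ± 11 to 308 ± 19 CPM (-0.22 ± 0.06, adjusted p = 0.00238). Both directions were also called in KO (Fcer1g 1.23 ± 0.06, Tyrobp -0.19 ± 0.06). Vav3, an exchange factor downstream of SYK, fell by 0.99 ± 0.09 in WT and by 1.13 ± 0.09 in KO. The median of the 20 was 0.34 in WT and 0.31 in KO at 24 h, beside -0.01 over all genes.

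Under palmitate at 24 h, 2 of 20 partners were called in each genotype (0.852% of all genes in WT and 0.877% in KO), and they were Vav3 (0.48 ± 0.08 in WT, 0.41 ± 0.08 in KO) and Syk (0.24 ± 0.05 in WT, 0.25 ± 0.05 in KO), both higher. At 2 h the edgeR test called none of the 20 in either genotype. Between genotypes, 9 of 20 were called in Control 0 h (7 higher in KO, 2 lower), beside 12.5% of all genes, and 0 of 20 in each of the other 6 conditions. At 0 h the fibroblast and granulocyte precursor markers also stood higher in KO, at 42.1 to 69.3 CPM against 0.529 to 0.905 CPM and at 138 to 153 CPM against 104 to 119 CPM, and their part in these calls was not tested. Averaged over conditions, 7 of 20 were called, beside 11.4% of all genes. Src (0.32 ± 0.06), Malt1 (0.23 ± 0.05) and Fgr (0.21 ± 0.05) were among those higher in the libraries labelled KO. Fcer1g (-0.10 ± 0.02) and Lyn (-0.09 ± 0.03) were lower in them. The genotype difference in granulocyte precursor markers outside 0 h, given above, also enters these averages, and its part was not tested.

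Of 36 other C-type lectin-like genes, 14 passed the filter. After 2 h of LPS, 5 of 14 were called in WT (4 higher, 1 lower) and 4 in KO (3 higher, 1 lower), against the same 23.1% and 23.9% of all genes. Cd69, an early activation antigen, rose from 0.984 ± 0.49 to 59.3 ± 3.5 CPM in WT (SD, n = 3), a log2 fold change of 5.93 ± 0.31. Olr1, which encodes the oxidised LDL receptor LOX-1, rose by 5.34 ± 0.23, from 2.66 ± 0.81 to 111 ± 18 CPM. Clec2d rose by 2.01 ± 0.13, and Thbd (thrombomodulin) fell by 1.19 ± 0.29. At 24 h, 10 of 14 were called in WT (5 in each direction) and 12 in KO (6 in each direction), against 39.5% and 40.9% of all genes. Mrc1, the mannose receptor, fell from 243 ± 16 to 53.9 ± 11 CPM in WT (-2.17 ± 0.12) and by 2.36 ± 0.12 in KO. Colec12, a scavenger receptor with a lectin domain, fell by 1.72 ± 0.14 in WT, and Ly75 (DEC-205) rose by 1.92 ± 0.32. Under LPS in WT, Olr1 was 111 ± 18 CPM at 2 h and 1.94 ± 0.50 CPM at 24 h, and Clec4e was 478 ± 37 CPM at 2 h and 632 ± 54 CPM at 24 h. Under palmitate at 24 h, Cd302 was the 1 gene of 14 called in WT (0.47 ± 0.11, adjusted p = 0.0154), and none was called in KO.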

How the data were processed

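RNA was sequenced from 42 libraries of mouse bone-marrow-derived macrophages. The authors trimmed paired-end reads of ribosome-depleted total RNA with fastp 0.19.11, aligned them with STAR 2.7.3a to mm10 and deposited raw read counts per gene. The submitters' processing notes also list mm9. The annotation release and the strand setting of the counting are not given in the sources used here. Each column name gives a group, and no column names a replicate, so libraries are numbered in table order. 0 columns of sample values were left unused. Replicate pairs (42) were set against counting noise, giving chi-square values over their degrees of freedom of 1.93 to 9.32, and none was merged.

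Genes passing filterByExpr (11624, holding 99.9% of counts) were fitted with edgeR 4.0.16 in R 4.3.3, as one quasi-likelihood fit to all 42 libraries with TMM factors and 1 mean per group. SE is the log2 fold change divided by the square root of F. P-values are two-sided and adjusted by Benjamini-Hochberg over all genes tested. For a single value, an exact permutation test of 3 against 3 cannot go below 0.1. The scripts were tested on simulated data. Alternatives were RLE factors, all genes with at least 1 count, only the libraries compared, DESeq2 1.42.0 and leaving out each library. An alternative without the 15 libraries rich in fibroblast markers was added after seeing the data. Depth limits the precision of low genes such as Clec4a3, and intervals of 3 counts cover counting error only.

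The 9 receptors, all gene lists and the tests were chosen with earlier results of these data known. All 9 receptors are named. Of the signalling partners and other lectin-like genes, at most 4 called genes per direction and comparison could be named, by size of change. Some of these are not reported here. For each receptor, the 3 genes with the highest Pearson's r over group means of log2 CPM (prior count 2) were listed. Gene positions are from GENCODE M21 and promoter sequences from RefSeq GRCm38.p6. The motif and sequence-sharing values are descriptions.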

Additional observations from a re-analysis of the deposited data

Results flagged for a closer look

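The signed LPS response differed between 24 h and 2 h, by edgeR's quasi-likelihood test of the difference itself, for all 9 receptors in both genotypes. Values are the log2 response at 24 h minus that at 2 h. A lower value was a smaller or lost rise for Clec5a and Clec4d, and a fall at 24 h for Clec7a and Clec4n. In WT, the response was higher at 24 h for Clec4a1 (1.57), Clec4e (1.15), Clec4a3 (0.84), Clec4a2 (0.60) and Clec12a (0.40). It was lower in WT for Clec7a (-1.73), Clec5a (-1.17), Clec4n (-0.67) and Clec4d (-0.49). In KO, it was higher for Clec4a1 (1.34), Clec4a3 (1.04), Clec4e (0.60), Clec4a2 (0.52) and Clec12a (0.46). It was lower in KO for Clec7a (-2.09), Clec5a (-1.61), Clec4d (-0.63) and Clec4n (-0.45). The Clec4e value in KO was not called by DESeq2 (0.58, adjusted p = 0.0659), and the values of Clec4a3 and Clec12a in WT and of Clec4e and Clec4n in KO lost their calls without single libraries.

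The course of Control libraries from 0 h differed between genotypes for Clec12a at 2 h (0.49) and for Clec7a at 24 h (0.44), given as the KO change minus the WT change on the log2 scale. Both calls were lost without any of several single libraries, 8 for Clec12a and 9 for Clec7a. In Control at 0 h and 2 h, fibroblast markers were higher in every library labelled KO than in any labelled WT, and at 24 h the ranges overlapped. Granulocyte precursor markers were higher in every KO Control library at 0, 2 and 24 h. The part of either in these values was not tested.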

How the results depend on the processing

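Of 270 receptor results, 77 were called, and 61 of these were called under every alternative run. The other 16 lost the call under at least 1 alternative, 16 of the 193 uncalled results were called under at least 1, and 0 reversed. RLE factors changed no receptor call. The number of receptors called for LPS at 2 h in KO went from 3 to 5 with all genes kept, and ranged from 3 to 5 on leaving out single libraries (5 without library 1 of KO Control 2 h). For KO against WT under LPS at 2 h it was 1 with all genes kept and 1 in a fit of only the libraries compared, in place of 0, and 0 to 1 without single libraries. In a fit of only the libraries compared it was 1 for KO against WT in Control 24 h, and with all genes kept it was 1 under LPS at 24 h, both in place of 0. From Control 0 h to 24 h it was 3 with all genes kept and 4 with only the libraries compared, and 1 to 2 without single libraries, in place of 1. For genotype by time at 2 h it was 2 with all genes kept, 2 by DESeq2 and 2 with only the libraries compared, and 0 to 1 without single libraries. Without single libraries it was also 0 to 3 for genotype by time at 24 h (3 without library 2 of KO Control 0 h), 1 to 2 for palmitate at 24 h in KO, and 0 to 2 for KO against WT in Control 0 h (0 without library 3 of KO Control 0 h). The cause was not tested.

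Counts over all genes moved by more than 1.5 times as follows. With all genes kept, palmitate went at 2 h from 32 to 76 in WT and from 13 to 34 in KO, and at 24 h from 99 to 167 and from 102 to 182. KO against WT went from 57 to 176 (Control 2 h), 17 to 130 (palmitate 2 h), 54 to 190 (LPS 2 h), 14 to 55 (Control 24 h), 8 to 75 (palmitate 24 h) and 17 to 112 (LPS 24 h). Genotype by LPS went from 0 to 43 at 2 h and 1 to 26 at 24 h, genotype by palmitate from 0 to 16 and 0 to 9, and genotype by time at 24 h from 213 to 367. DESeq2 called 20 for palmitate 2 h in KO, 35, 15 and 33 for KO against WT in palmitate 2 h, palmitate 24 h and LPS 24 h, 1 and 2 for genotype by LPS, and 320 for genotype by time at 24 h. With only the libraries compared, palmitate gave 83 and 21 at 2 h and 226 in KO at 24 h. KO against WT then gave 235, 96, 23, 52, 20 and 9 in the order of conditions above, genotype by LPS at 24 h gave 0, and genotype by time at 24 h gave 409. Without single libraries, KO against WT in Control 0 h ranged from 731 to 1374 (1448 with all), genotype by time from 312 to 698 at 2 h and 57 to 420 at 24 h, palmitate from 9 to 32 and 6 to 10 at 2 h and 51 to 95 and 48 to 76 at 24 h, and KO against WT in the 6 other conditions from 4 to 69. Among libraries low in fibroblast markers, 13 comparisons could be fitted and no receptor count moved by more than 1.5 times, while palmitate in WT gave 5 genes at 2 h and 45 at 24 h, and KO against WT gave 8 in palmitate 2 h and 9 in LPS 24 h.

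The 3 genes most like each receptor changed with the measure. Of the 3, Spearman's rho over the 14 means kept 2 for Clec4a1, 1 each for Clec4d, Clec4e, Clec4n and Clec7a, and 0 for the other 4. Pearson's r over 42 libraries kept 2 for Clec4a1 and Clec4e, 1 for Clec4n and Clec7a, and 0 for the other 5. No paired analysis was possible because the columns of the count table name groups and carry no replicate numbers. At 26 to 188 counts per library, Clec4a3 was the receptor most limited by depth.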
